A study of Mus musculus with 6 samples.

Results

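Wnt ligands are secreted, lipid-modified glycoproteins that carry signals between neighbouring cells. Expression of 10 of them (Wnt3, Wnt4, Wnt5a, Wnt5b, Wnt6, Wnt7a, Wnt7b, Wnt10a, Wnt10b and Wnt11) was examined in mouse hair follicle stem cells. They were taken by gene symbol from a count table of 23377 genes, and all 10 were present. The other 9 mouse Wnt ligands were in the table too and are described after them. RNA-seq libraries came from sorted follicle cells of C57BL/6 mice, 2 of the genotype Ring1a/b-/- and 2 wild type (WT), each from 3000 cells. Libraries were made by SMART-seq2, which copies whole polyadenylated transcripts and amplifies them by PCR. Ring1a and Ring1b can each serve as the ubiquitin ligase of PRC1, a Polycomb complex that marks histone H2A at silent developmental genes. The sources used here do not give the age of the mice, the driver and timing of the deletion, the sorting gate of the RNA samples or whether the libraries came from separate animals. The p-values therefore cover the spread among these 4 libraries, which may be technical.

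A Wnt ligand is acylated by Porcn, carried to the cell surface by Wls, and bound there by a Frizzled receptor with a co-receptor. Ligands such as Wnt3, Wnt7b and Wnt10b are best known for stabilising β-catenin, which joins Tcf/Lef factors on target genes, while Wnt5a, Wnt5b and Wnt11 are best known for branches that act on cell polarity and calcium. In skin, β-catenin signalling is needed for follicles to form and for the growth phase to begin, and follicle epithelium itself makes several of the ligands.

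The 4 libraries held 2785843 to 7740945 counts, and the Ring1a/b-/- libraries were the deeper pair. The 10 ligands together took 2171 and 3291 counts in Ring1a/b-/- libraries, against 1271 and 1081 in WT libraries. All 10 were detected in both Ring1a/b-/- libraries, while 9 and 7 were detected in the WT libraries. The gene of Ring1a, Ring1, had 15.5 and 18.3 CPM (counts scaled to library size with TMM factors) in Ring1a/b-/- libraries, against 31.8 and 29.3 CPM in WT libraries. The gene of Ring1b, Rnf2, had 150 and 152 CPM in Ring1a/b-/- libraries, against 144 and 87.4 CPM in WT libraries. Neither gene passed the test (edgeR adjusted p = 0.551 and 0.532), and neither checks the genotype, because counts cover whole genes and no source used here says which exons were deleted. Markers of follicle epithelium summed to 2460 and 2070 CPM in Ring1a/b-/- libraries, against 2280 and 2260 CPM in WT libraries. At least 11 of 12 were detected in each library, and the 1 missing, in WT replicate 1, was Nfatc1. It had 192 and 273 counts in Ring1a/b-/- libraries, against 0 and 7 counts in WT libraries. The close sums cover members on both sides. In both Ring1a/b-/- libraries 4 of the 12 were higher and 4 lower, where 24.7% and 22.5% of all genes tested were. Sox9, for example, had 171 and 155 CPM in Ring1a/b-/- libraries, against 49.3 and 94.7 CPM in WT libraries, and Krt15 had 301 and 249 CPM in Ring1a/b-/- libraries, against 416 and 360 CPM in WT libraries.

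The start regions of 4 ligands are printed because their Ring1a/b-/- and WT libraries did not overlap (Wnt4, Wnt6 and Wnt11 higher, Wnt3 lower in Ring1a/b-/-), and because CpG-rich starts are known as a typical place for Polycomb complexes to bind. Each is 300 bases, 250 before to 50 after the start, from RefSeq on build GRCm38.p6, 5′ to 3′ on the strand of the gene, with CpG dinucleotides in capitals. Of the 10 ligands, 7 had such a window, and Wnt5a, Wnt7b and Wnt10a did not.
Wnt4, chr4:137277385-137277684, plus strand: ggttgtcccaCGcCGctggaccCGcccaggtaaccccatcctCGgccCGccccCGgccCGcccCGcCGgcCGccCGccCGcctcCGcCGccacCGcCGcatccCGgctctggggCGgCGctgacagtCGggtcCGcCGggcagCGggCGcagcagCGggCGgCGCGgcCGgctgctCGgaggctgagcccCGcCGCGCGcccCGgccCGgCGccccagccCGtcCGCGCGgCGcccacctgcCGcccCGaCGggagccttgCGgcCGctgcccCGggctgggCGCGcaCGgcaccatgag
Wnt6, chr1:74771642-74771941, plus strand: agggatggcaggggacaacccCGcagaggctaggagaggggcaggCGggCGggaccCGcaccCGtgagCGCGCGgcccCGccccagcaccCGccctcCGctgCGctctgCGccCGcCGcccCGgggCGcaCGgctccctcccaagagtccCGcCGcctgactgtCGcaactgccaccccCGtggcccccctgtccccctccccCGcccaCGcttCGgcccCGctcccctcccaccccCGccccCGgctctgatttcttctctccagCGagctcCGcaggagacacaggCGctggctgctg
Wnt11, chr7:98834862-98835161, plus strand: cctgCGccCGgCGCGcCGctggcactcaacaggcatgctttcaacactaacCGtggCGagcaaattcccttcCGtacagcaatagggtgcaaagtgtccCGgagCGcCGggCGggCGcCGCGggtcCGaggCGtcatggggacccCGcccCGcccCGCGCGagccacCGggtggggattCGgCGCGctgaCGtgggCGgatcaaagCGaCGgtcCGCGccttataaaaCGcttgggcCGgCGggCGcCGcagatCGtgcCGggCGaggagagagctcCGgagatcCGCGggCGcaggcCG
Wnt3, chr11:103773925-103774224, plus strand: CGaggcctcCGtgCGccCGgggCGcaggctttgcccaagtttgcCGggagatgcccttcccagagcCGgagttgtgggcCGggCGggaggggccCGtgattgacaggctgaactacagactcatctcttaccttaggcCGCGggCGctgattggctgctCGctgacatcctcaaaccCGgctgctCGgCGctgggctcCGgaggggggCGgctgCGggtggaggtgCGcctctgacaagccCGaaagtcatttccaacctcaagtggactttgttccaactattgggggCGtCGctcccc

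The capitals show CpG along most of the Wnt4 and Wnt11 windows and more thinly in Wnt3. Wnt4 held 51 CpG, Wnt11 held 45, Wnt6 held 31 and Wnt3 held 24, against a median of 7 over 27025 windows, 1 per gene. Among the 3 windows not printed, Wnt5b held 47, Wnt7a held 42 and Wnt10b held 18. A GC content of at least 50% with a ratio of observed to expected CpG of at least 0.6 was met by 6 of the 7 windows and by 34.3% of all windows. The exception was Wnt10b, with a ratio of 0.56. The core motif of Tcf/Lef factors, CTTTGAT on either strand, which shares no base with CpG, was in 1 of the 7 windows and in 3.72% of all windows. The match was in Wnt11, as ATCAAAG from base 200 of the window. The windows are on another build than the Ring1b peaks of the series, which are on mm9 and were not used here, so they say nothing of binding.

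No ligand passed the test across all genes. Of the 10, 9 had enough counts to be tested and 0 of those 9 were called higher or lower in Ring1a/b-/- cells by the edgeR quasi-likelihood test at a Benjamini-Hochberg adjusted p of 0.05, where 0.0609% of 13134 genes were called (0.0533% higher and 0.00761% lower). Before adjustment 1 ligand, Wnt7b, had p under 0.05 in the direction of Ring1a/b-/- higher, where 8.47% of genes did, and 0 in the other direction, where 8.16% did. The authors' deposited table, in which 6.21% of genes had an adjusted p under 0.05 and were higher in Ring1a/b-/- and 6.14% were lower, had 1 of the 10 ligands higher and 0 lower, and limma-voom called 0 (1 before adjustment, where 14.9% of genes were). The libraries of the genotypes did not overlap for 4 tested ligands, all higher in Ring1a/b-/-, where 24.7% of genes did so, and for 0 in the other direction, where 22.5% of genes did. Wnt7b had enough counts for the test through its Ring1a/b-/- libraries alone, and Wnt3, lower in both Ring1a/b-/- libraries, had too few. The median log2 fold change of the 9, which leaves out Wnt3, was 0.27, against 0.03 over all genes tested. In bulk RNA, fewer cells of a type and less RNA per cell cannot be told apart, which applies to each value here.

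**Figure D1:**
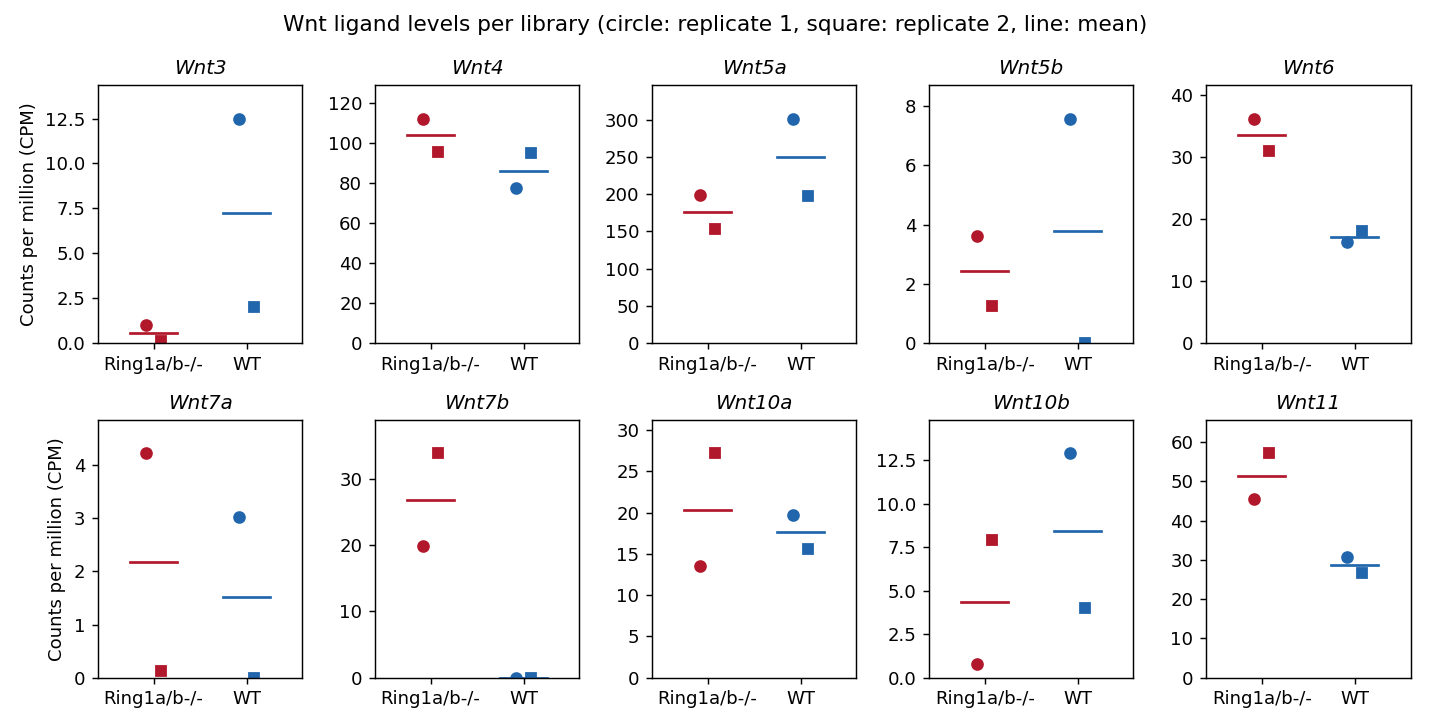
Level of each of the 10 Wnt ligands in CPM (y axis, linear from 0, its own scale per panel) in Ring1a/b-/- and WT libraries; circles are replicate 1, squares replicate 2, and lines the mean of the 2. Wnt7b stood at 19.9 and 33.9 CPM in Ring1a/b-/- libraries and at 0 in both WT libraries, Wnt6 and Wnt11 were higher in both Ring1a/b-/- libraries, and Wnt3 was higher in both WT libraries.

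Wnt7b, a ligand with known roles in lung, placenta and brain vessels and in the cycling of follicle stem cells, was read in both Ring1a/b-/- libraries and in neither WT library. It had 99 and 274 counts in Ring1a/b-/- libraries, against 0 and 0 counts in WT libraries, or 19.9 and 33.9 CPM in Ring1a/b-/- libraries. At the mean level of the Ring1a/b-/- libraries the WT libraries would have held 71 and 80.9 counts, and at the lower of the 2 Ring1a/b-/- levels 52.5 and 59.8. Against a floor of 3 counts over the WT libraries (0.531 CPM), Wnt7b was at least 50.6-fold higher in Ring1a/b-/- cells. The edgeR adjusted p was 0.111 (p = 0.000446), while the authors' deposited table marked Wnt7b as higher with an adjusted p of 1.72e-05. It was also past 0.05 in edgeR with no low-count filter (adjusted p = 3.06e-05), where 4.26% of genes were called and 2.42% were called higher. With 1 library left out at a time the bound ran from 23.5 to 64, and the edgeR adjusted p from 0.0588 to 0.513. The bound was lowest without WT replicate 2 (23.5) and without WT replicate 1 (27.2), where the floor rests on 1 WT library, and it was 37.1 without Ring1a/b-/- replicate 2. Of 7413 genes with 0 counts in both WT libraries, 4550 also had 0 counts in both Ring1a/b-/- libraries. At least as many Ring1a/b-/- counts as Wnt7b were found for 12 of the 7413, Wnt7b among them.

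Summed markers of 6 of the 8 lists for other cells did not overlap between the genotypes either, although no marker below passed edgeR's test, and their part in the ligand results was not tested. At an adjusted p under 0.05 the authors' deposited table had 7 of 11 hair matrix and inner root sheath markers lower and 0 higher. It had 3 of 9 leukocyte markers higher and 0 lower, and 2 of 7 endothelial and mural markers lower and 0 higher. On each other list given below at most 1 marker passed there in either direction. Over all genes it had 6.21% higher and 6.14% lower. Leukocyte markers summed to 669 and 313 CPM in Ring1a/b-/- libraries, against 145 and 152 CPM in WT libraries, with 10 of 12 detected in each library. Cd207 was at 0 in all 4, Cd3e had 1 count, in WT replicate 1, and Cd52 was at 0 in that library alone. Of the 9 leukocyte markers tested, 6 were higher in both Ring1a/b-/- libraries and 0 lower, where 24.7% and 22.5% of all genes tested were. Merkel cell markers summed to 94.6 and 121 CPM in Ring1a/b-/- libraries, against 7.96 and 33.9 CPM in WT libraries, with 6 and 7 of 7 detected against 2 and 6; Atoh1 was at 0 in replicate 1 of both genotypes, and most of the sum was Krt8 and Krt18. Hair matrix and inner root sheath markers summed to 1710 and 1960 CPM in Ring1a/b-/- libraries, against 3680 and 3070 CPM in WT libraries. All 11 were detected in every library, with 9 lower and 1, Hoxc13, higher in both Ring1a/b-/- libraries. Over all genes tested, 22.5% were lower and 24.7% higher in this way. Fibroblast and dermal papilla markers summed to 406 and 216 CPM in Ring1a/b-/- libraries, against 650 and 801 CPM in WT libraries, with 11 and 11 of 12 detected against 9 and 9. Most of that sum was Dcn, with 270 and 158 CPM in Ring1a/b-/- libraries, against 592 and 429 CPM in WT libraries. Some members stood the other way, among them Prom1 with 14.7 and 10 CPM in Ring1a/b-/- libraries, against 1.14 and 0 CPM in WT libraries, Alx4, Pdgfra and Sox2. Endothelial and mural markers summed to 191 and 182 CPM in Ring1a/b-/- libraries, against 278 and 315 CPM in WT libraries, with Emcn at 0 in all 4. Cspg4, with 179 and 135 CPM in Ring1a/b-/- libraries, against 102 and 137 CPM in WT libraries, made most of the Ring1a/b-/- sum, while Acta2 had 9.84 and 46.4 CPM in Ring1a/b-/- libraries, against 158 and 137 CPM in WT libraries. Melanocyte markers summed to 186 and 132 CPM in Ring1a/b-/- libraries, against 193 and 196 CPM in WT libraries, with Sox10 at 0 in all 4. The values of replicate 1 were thus close, and most of the sum was Kit. Kit had 116 and 86.5 CPM in Ring1a/b-/- libraries, against 127 and 109 CPM in WT libraries.

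Wnt7a, the closest relative of Wnt7b and known for dorsal patterning of the limb in mouse, was near the detection limit. It had 21 and 1 counts in Ring1a/b-/- libraries, against 8 and 0 counts in WT libraries. The groups overlapped, and the 34.1-fold ratio between the Ring1a/b-/- libraries was wider than the mean difference between genotypes, which was 0.51 ± 2 on the log2 scale (with SE, as below; edgeR adjusted p = 0.952). Its sign changed without WT replicate 2 (-0.52). In brain vessels both Wnt7 ligands act through the co-receptors Gpr124 and Reck, a pair singled out here after their values were seen. Gpr124 stood at 11.4 and 37.1 CPM in Ring1a/b-/- libraries, against 4.17 and 8.98 CPM in WT libraries (edgeR adjusted p = 0.362), and Reck at 5.82 and 37 CPM in Ring1a/b-/- libraries, against 7.58 and 23.3 CPM in WT libraries (edgeR adjusted p = 0.892).

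Wnt10a and Wnt10b act through β-catenin, and both are known from hair: loss of human WNT10A affects hair, teeth and sweat glands, and Wnt10b is made early in mouse follicle buds and in growth. Wnt10a stood at 13.5 and 27.2 CPM in Ring1a/b-/- libraries, against 19.7 and 15.6 CPM in WT libraries. Both WT values lay between the Ring1a/b-/- values, and the log2 fold change was 0.21 ± 0.73 (edgeR adjusted p = 0.945). It was -0.4 without Ring1a/b-/- replicate 2. Wnt10b stood at 0.803 and 7.92 CPM in Ring1a/b-/- libraries, against 12.9 and 3.99 CPM in WT libraries. The libraries of 1 genotype differed 9.86-fold in Ring1a/b-/- and 3.23-fold in WT, so the log2 fold change of -0.93 ± 1.36 was within the spread between replicates (edgeR adjusted p = 0.827), and it was 0.16 without WT replicate 1 and -3.35 without Ring1a/b-/- replicate 2.

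Wnt6, which epidermis makes during development, had 180 and 250 counts in Ring1a/b-/- libraries, against 43 and 54 counts in WT libraries. In CPM this was 36.2 and 30.9 in Ring1a/b-/- libraries, against 16.3 and 18 in WT libraries, so the groups did not overlap and replicates lay within 1.17-fold in Ring1a/b-/- and 1.1-fold in WT. The means were 33.6 ± 3.68 CPM in Ring1a/b-/- and 17.1 ± 1.17 CPM in WT (SD, n = 2 each), a log2 fold change of 0.97 ± 0.58 that did not pass edgeR's test (adjusted p = 0.458). Across all 12 alternatives tried its log2 fold change lay above 0, from 0.57 with a trend on gene span and abundance removed to 1.07 with library totals.

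Wnt3 is a β-catenin ligand that mouse embryos need for gastrulation and that hair matrix cells make. Of the 10 ligands it was the 1 with lower values in both Ring1a/b-/- libraries. It had 5 and 1 counts in Ring1a/b-/- libraries, against 33 and 6 counts in WT libraries, or 1 and 0.124 CPM in Ring1a/b-/- libraries, against 12.5 and 1.99 CPM in WT libraries. These few counts kept it from the main test, and most of its WT counts came from replicate 1. With no low-count filter edgeR gave a log2 fold change of -3.67 ± 1.94 (adjusted p = 0.351), and the authors' deposited table gave -3.75 ± 1.63 with an adjusted p of 0.115. Of the 11 hair matrix and inner root sheath markers given above, 9 were lower and 1, Hoxc13, higher in both Ring1a/b-/- libraries. A link to Wnt3 was not tested.

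Wnt4, known for kidney tubules and the female reproductive tract, stood at 112 and 95.2 CPM in Ring1a/b-/- libraries, against 77.3 and 94.7 CPM in WT libraries. The groups did not overlap, but the lower Ring1a/b-/- and the higher WT value were nearly equal. The log2 fold change was 0.27 ± 0.26 (edgeR adjusted p = 0.691), and it was 0.13 without WT replicate 1, 0.15 without Ring1a/b-/- replicate 1 and 0.41 without WT replicate 2.

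Among ligands of the polarity and calcium branches, Wnt11, known for kidney branching and cell movements of the embryo, had 227 and 461 counts in Ring1a/b-/- libraries, against 81 and 80 counts in WT libraries. It stood at 45.6 and 57.1 CPM in Ring1a/b-/- libraries, against 30.7 and 26.6 CPM in WT libraries. Both Ring1a/b-/- values lay above both WT values, with means of 51.3 ± 8.12 CPM in Ring1a/b-/- and 28.6 ± 2.9 CPM in WT (SD, n = 2 each). The difference of 0.85 ± 0.43 on the log2 scale did not pass edgeR's test (adjusted p = 0.374), and over all alternatives it lay from 0.63 to 1.

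Wnt5a, a ligand of the receptor Ror2, took the most counts of the 10. It stood at 199 and 154 CPM in Ring1a/b-/- libraries, against 302 and 198 CPM in WT libraries. The groups overlapped by a narrow margin, since Ring1a/b-/- replicate 1 and WT replicate 2 were almost level. The log2 fold change was -0.5 ± 0.25 (edgeR adjusted p = 0.363), and it was -0.16 without WT replicate 1 and -0.79 without WT replicate 2. Ror2 stood at 85.6 and 75.3 CPM in Ring1a/b-/- libraries, against 44.3 and 61.8 CPM in WT libraries (edgeR adjusted p = 0.398), and was singled out after its values were seen. Wnt5b, a close relative of Wnt5a, had 18 and 10 counts in Ring1a/b-/- libraries, against 20 and 0 counts in WT libraries. The WT libraries thus spanned both Ring1a/b-/- values, and the log2 fold change was -0.64 ± 1.77 (edgeR adjusted p = 0.926). Without WT replicate 1 no WT count of Wnt5b remained, and the value of 6.7 fitted there is no measure of size.

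**Figure D2:**
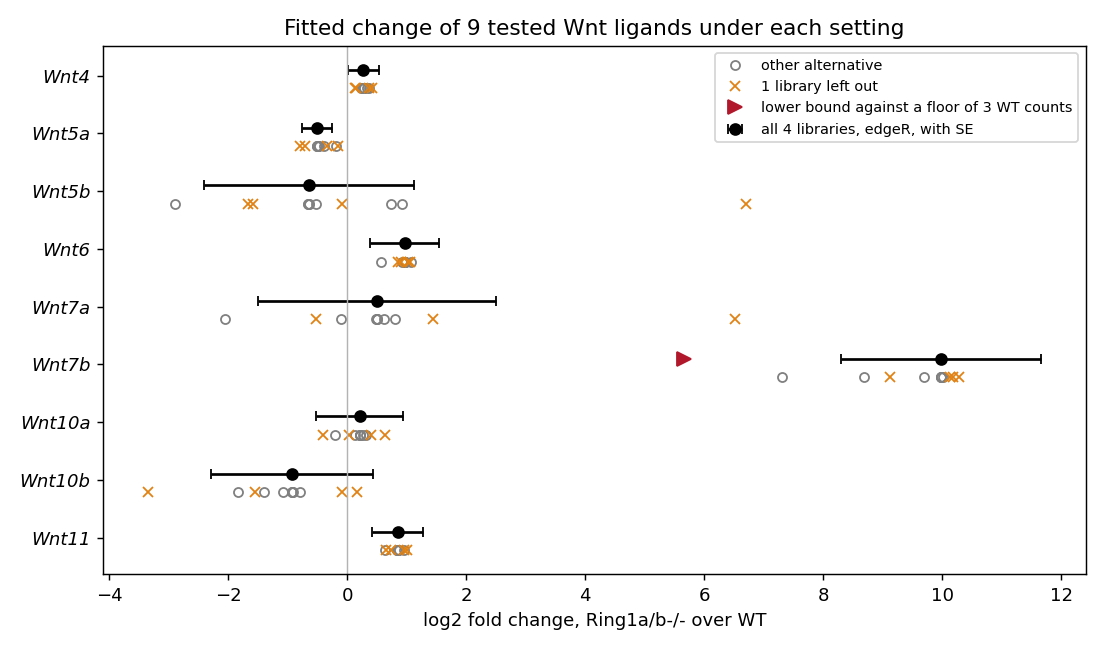
Fitted log2 fold change of Ring1a/b-/- over WT (x axis) for 9 tested Wnt ligands (rows); black points are edgeR with all 4 libraries and bars its SE, crosses leave out 1 library, open circles are the other alternatives, and the triangle is the lower bound of Wnt7b. Wnt4, Wnt6, Wnt7b and Wnt11 stayed above 0 and Wnt5a below 0 in each setting drawn, while Wnt5b, Wnt7a, Wnt10a and Wnt10b fell on both sides.

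Summed over the 10 ligands, the genotypes were close in level. The sum was 436 and 407 CPM in Ring1a/b-/- libraries, against 482 and 359 CPM in WT libraries, with means of 422 ± 20.5 CPM in Ring1a/b-/- and 420 ± 87 CPM in WT (SD, n = 2 each). Wnt5a gave 45.7% and 37.7% of this sum in Ring1a/b-/- libraries, against 62.6% and 55.2% in WT libraries, as shares of reads and not of molecules, since exon lengths were not used. Without Wnt5a, a sum chosen after the data were seen, the other 9 came to 237 and 254 CPM in Ring1a/b-/- libraries, against 180 and 161 CPM in WT libraries. With 2 libraries a genotype an exact permutation test cannot go below p = 0.333, so no test is given for these sums.

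Several Wnt genes are neighbours on the chromosome, in the RefSeq gene order of GRCm38.p6, and their values are given side by side. Wnt6 and Wnt10a lie on chromosome 1 with 0 protein-coding genes between them; Wnt6 did not overlap between genotypes and Wnt10a did. Wnt10b lies beside Wnt1 on chromosome 15, and Wnt1 had 0 counts in all 4 libraries. Wnt3 lies beside Wnt9b on chromosome 11, and Wnt9b had 0 and 2 counts in Ring1a/b-/- libraries, against 0 and 0 counts in WT libraries.

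The other 9 Wnt ligands held few counts. Only Wnt9a and Wnt2b had enough to be tested and neither passed (edgeR adjusted p = 0.998 and 0.722). Wnt9a stood at 11 and 4.46 CPM in Ring1a/b-/- libraries, against 10.6 and 4.99 CPM in WT libraries. Wnt2b had 1 and 27 counts in Ring1a/b-/- libraries, against 1 and 35 counts in WT libraries, so nearly all of its counts came from the second library of each genotype. Wnt2, known from mesenchyme of lung and other organs, had 1 and 62 counts in Ring1a/b-/- libraries, against 0 and 0 counts in WT libraries, at least 7.41-fold higher in Ring1a/b-/- but carried by 1 library. Wnt3a had 8 and 1 counts in Ring1a/b-/- libraries, against 0 and 0 counts in WT libraries. Wnt8a and Wnt8b had at most 5 counts in any library, and Wnt16 had 0 counts in all 4.

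Profiles most like those of 2 ligands were sought among 10963 other genes with a mean of at least 10 CPM, by the largest difference in gene-centred log2(CPM + 1) over the 4 libraries. For Wnt5a these were Kif20a (largest difference 0.03), Dazap2 (0.04) and Xab2 (0.05). For Wnt7b they were Cilp2 (0.19), Foxd2os (0.3) and Sdk2 (0.3). Cilp2 had 25.7 and 42 CPM in Ring1a/b-/- libraries, against 0 and 0 CPM in WT libraries. With 4 libraries, many genes can share a profile, and these names are a description only.

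The machinery around the ligands was counted in 7 lists of 96 genes found in the table, of which 83 were tested. In edgeR 0 of these passed, where 0.0609% of all genes did, with 11 higher and 5 lower before adjustment, where 8.47% and 8.16% of all genes were. Among the 11, Sfrp2 and Twist1 had 0 WT counts and so had enough counts for the test through their Ring1a/b-/- libraries alone. Limma-voom called 0 (15 before adjustment, where 14.9% of all genes were). The median log2 fold change was 0.06, against 0.03 over all genes tested. The authors' deposited table had an adjusted p under 0.05 for 8 higher and 5 lower of the 87 that it adjusted, where 6.21% and 6.14% of all genes did. Fzd3, Wif1, Nfatc1, Rhoa and Sfrp2 were also past 0.05 in edgeR with no low-count filter and with the replicate block, and Celsr1 with no low-count filter. With no low-count filter 4.26% of all genes were called, and the replicate block called 416 genes. The block pairs libraries by replicate number, which is not known to mark a pair. With the numbers crossed it called 8 genes, and Fzd3 alone of the pathway genes.

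In secretion 0 of 6 tested genes passed. Porcn, the acyltransferase, stood at 189 and 159 CPM in Ring1a/b-/- libraries, against 181 and 163 CPM in WT libraries, and Wls, the carrier, at 246 and 235 CPM in Ring1a/b-/- libraries, against 319 and 258 CPM in WT libraries (edgeR adjusted p = 0.985 and 0.564). Trabd2b, a protease that inactivates Wnt proteins, stood at 22.7 and 58.7 CPM in Ring1a/b-/- libraries, against 10.6 and 16.3 CPM in WT libraries (edgeR adjusted p = 0.282). Gpc6, a glypican, had an adjusted p of 0.627 in edgeR.

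Of 17 receptors and co-receptors tested 0 passed. Fzd3, a Frizzled receptor known for axon guidance and polarity, stood at 227 and 201 CPM in Ring1a/b-/- libraries, against 33 and 65.5 CPM in WT libraries. Its log2 fold change of 2.12 ± 0.32 had an edgeR adjusted p of 0.0798, and the adjusted p in DESeq2 was 1.87e-09. The log2 fold change was 1.71 without WT replicate 1 and 2.68 without WT replicate 2. Fzd8 stood at 1.61 and 0.371 CPM in Ring1a/b-/- libraries, against 7.2 and 23.9 CPM in WT libraries (adjusted p = 0.196 in edgeR and 0.00889 in DESeq2). Fzd1 stood at 267 and 234 CPM in Ring1a/b-/- libraries, against 301 and 402 CPM in WT libraries (edgeR adjusted p = 0.278), and the co-receptor Lrp6 at 305 and 262 CPM in Ring1a/b-/- libraries, against 248 and 263 CPM in WT libraries (edgeR adjusted p = 0.768).

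R-spondins strengthen Wnt signals through Lgr receptors, which keep the ubiquitin ligases Rnf43 and Znrf3 away from Frizzled; 0 of 6 tested genes passed. Lgr5, the stem cell marker, stood at 249 and 238 CPM in Ring1a/b-/- libraries, against 139 and 193 CPM in WT libraries (adjusted p = 0.244 in edgeR and 0.0439 in DESeq2). Rspo1 had 24 and 244 counts in Ring1a/b-/- libraries, against 0 and 10 counts in WT libraries (edgeR adjusted p = 0.346). Lgr4, Rnf43 and Znrf3 had edgeR adjusted p-values of 0.984, 0.57 and 0.593.

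Of 9 secreted inhibitors and their receptors tested 0 passed. Wif1, which binds Wnt proteins, stood at 24.7 and 15.5 CPM in Ring1a/b-/- libraries, against 250 and 78.5 CPM in WT libraries (edgeR adjusted p = 0.106). The WT libraries differed 3.18-fold, and the adjusted p of Wif1 in DESeq2 was 0.00592. Sfrp2, a soluble decoy of Frizzled, stood at 12.1 and 14.7 CPM in Ring1a/b-/- libraries, against 0 and 0 CPM in WT libraries, at least 25.2-fold higher in Ring1a/b-/- (adjusted p = 0.147 in edgeR and 0.000806 in DESeq2). Its relative Sfrp1 stood at 62.7 and 73.9 CPM in Ring1a/b-/- libraries, against 19.3 and 46.9 CPM in WT libraries (edgeR adjusted p = 0.316). Kremen1, a receptor of Dkk inhibitors, had an edgeR adjusted p of 0.993.

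Inside the cell 0 of 21 transducers passed. Ctnnb1, which encodes β-catenin, stood at 378 and 297 CPM in Ring1a/b-/- libraries, against 437 and 443 CPM in WT libraries, and its kinase Gsk3b at 314 and 287 CPM in Ring1a/b-/- libraries, against 388 and 400 CPM in WT libraries (edgeR adjusted p = 0.354 and 0.302). In DESeq2 Gsk3b had an adjusted p of 0.0392. Tcf7, a DNA-binding partner of β-catenin, stood at 39.8 and 59.3 CPM in Ring1a/b-/- libraries, against 22.7 and 22.9 CPM in WT libraries (edgeR adjusted p = 0.287). Tle1, a Tcf-bound corepressor, stood at 34.1 and 26.6 CPM in Ring1a/b-/- libraries, against 11 and 10.3 CPM in WT libraries (adjusted p = 0.305 in edgeR and 0.048 in DESeq2).

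Of 15 response genes tested, which respond to β-catenin in one tissue or another, 0 passed, with a median log2 fold change of -0.02. Axin2, the most used readout, stood at 42 and 22.8 CPM in Ring1a/b-/- libraries, against 30.3 and 54.5 CPM in WT libraries (edgeR adjusted p = 0.811) and was singled out after its values were seen. Ccnd1, a cyclin of the G1 phase, stood at 304 and 295 CPM in Ring1a/b-/- libraries, against 413 and 428 CPM in WT libraries (adjusted p = 0.202 in edgeR and 0.00432 in DESeq2). Twist1, a mesenchymal factor, had 9.24 and 5.94 CPM in Ring1a/b-/- libraries, against 0 and 0 CPM in WT libraries, at least 14.3-fold higher in Ring1a/b-/- (adjusted p = 0.154 in edgeR and 0.0106 in DESeq2).

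In the polarity and calcium branch 0 of 14 passed. Celsr1, a polarity cadherin, stood at 182 and 182 CPM in Ring1a/b-/- libraries, against 87.1 and 103 CPM in WT libraries, and the small GTPase Rhoa at 187 and 200 CPM in Ring1a/b-/- libraries, against 352 and 362 CPM in WT libraries (edgeR adjusted p = 0.147 and 0.124). In DESeq2 their adjusted p-values were 7.9e-05 for Celsr1 and 2.93e-07 for Rhoa. Nfatc1, a calcium-responsive factor of quiescent bulge cells, had 192 and 273 counts in Ring1a/b-/- libraries, against 0 and 7 counts in WT libraries (adjusted p = 0.149 in edgeR and 1.09e-05 in DESeq2). Camk2d, a calcium-dependent kinase named after its values were seen, had 15.5 and 64.2 CPM in Ring1a/b-/- libraries, against 5.3 and 10.3 CPM in WT libraries (adjusted p = 0.217 in edgeR and 0.0278 in DESeq2). Celsr2 had an edgeR adjusted p of 0.34.

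**Figure D3:**
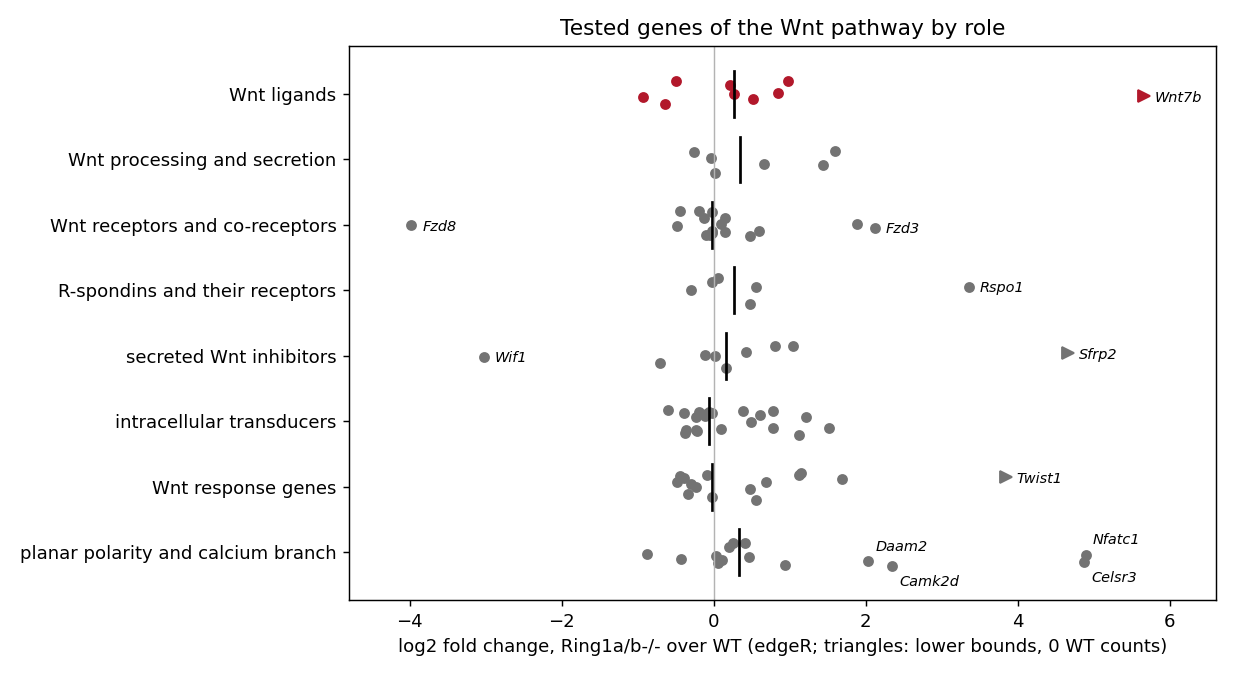
Log2 fold change of Ring1a/b-/- over WT (x axis) for each tested gene of the Wnt ligands (red) and of 7 pathway lists (grey, rows); triangles are lower bounds for genes with 0 WT counts black bars are list medians, and genes beyond 2 in size are named. List medians lay from -0.07 to 0.34, and Wnt7b was the 1 tested ligand beyond 1 in size. Not drawn is Wnt3, which was lower in both Ring1a/b-/- libraries but had too few counts to be tested.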

How the data were processed

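RNA-seq counts were analysed for 4 libraries. The submitters' processing notes name TopHat2 2.1.1, Bowtie 1.2.2, HTSeq 0.7.2 and DESeq2 with build mm9; the sources used here do not give their settings, the gene annotation or the use of strand. The deposited table holds whole-number counts per gene symbol, with no normalization. The table of the authors' comparison, per the file headers, holds log2 fold changes of knockout over wild type, their standard errors (a score column here) and p-values before and after adjustment. The deposited normalized table, which holds the same counts divided by a constant per library, was not used. The Ring1b peak lists are on mm9 and could not be tied to genes without an annotation of that build.

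The test was edgeR 4.0.16 under R 4.3.3 (filterByExpr, TMM factors, robust quasi-likelihood test, genotype as the only term, Benjamini-Hochberg adjustment over all 13134 genes). SE was taken as the absolute log2 fold change divided by root F. DESeq2 1.42.0 and limma 3.58.1 were alternatives. Low ligand counts limit precision: floors of 3 counts are 0.371 to 1.14 CPM per library, and such floors cover counting error only, because reads copied by PCR do not count molecules. Sequences were read in Python 3.11.15. The ligands and lists were chosen with earlier results of these data known. The text names all ligands and, per list, the 3 genes of smallest p and the 2 of highest mean CPM, others being marked as chosen later.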

Additional observations from a re-analysis of the deposited data

How the results depend on the processing

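No ligand was called in edgeR with DESeq2 size factors, library totals, a filter of 1 CPM in 2 libraries, any single library left out, a trend on gene span and abundance removed, or in limma-voom. With no low-count filter, with DESeq2 and with the replicate block 1 ligand was called, Wnt7b each time. DESeq2 gave Wnt7b the log2 fold change (8.69) and adjusted p (1.72e-05) of the authors' deposited table. It also called the same number of genes, so DESeq2 and the deposited table are not separate results. Over all genes, against 8 called, edgeR called 802 with no low-count filter, 1 with DESeq2 size factors, 1 with the 1 CPM filter, 1 with the trend removed and 0 to 60 with 1 library left out, DESeq2 called 1792 and limma-voom 0 (1956 before adjustment). The cause was not tested. Of the pathway genes, against 0, edgeR called 6 with no low-count filter and 0 to 3 with 1 library left out, and DESeq2 called 13. The summed level, 422 CPM in Ring1a/b-/- and 420 CPM in WT, was 246 and 170 CPM without Wnt5a, 407 to 436 CPM in Ring1a/b-/- with 1 library left out and 359 to 482 CPM in WT.

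Of 107 alternative values of single ligands, 95 kept their direction and side of the threshold, 3 passed it and 9 changed sign, none of those past the threshold. Wnt5b was 0.92 in limma-voom and 0.74 with the replicate block, and -1.66 to 6.7 with 1 library left out. Wnt7a was -0.1 in limma-voom and -2.06 with the trend removed, and -0.52 to 6.52 with 1 library left out; without Ring1a/b-/- replicate 1 it fell under the count filter. Wnt10a was -0.2 with the trend removed and -0.4 to 0.63 with 1 library left out, and Wnt10b was -3.35 to 0.16. Values of 6.52 and 6.7 are fitted against 0 WT counts and are no measure of size.

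Replicate numbers are shared by the genotypes, but nothing says that they mark a pair, and same-numbered deviations correlated at -0.14 across genes. The replicate block called 416 genes, 1 ligand (Wnt7b, adjusted p = 0.00421) and 5 pathway genes. With the numbers crossed (added after seeing the data) the block called 8 genes, 0 ligands and 1 pathway gene.

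With 2 libraries per genotype, deeper libraries in Ring1a/b-/- and the use of strand not given, small differences among the ligands could not be resolved here.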
